A study of Mus musculus with 12 samples.

Results

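The genes described here are 46 mouse genes of the pathway of the transcription factor ATF4, of amino acid supply and of tRNA charging. They were grouped by function, and control of each by ATF4 was not tested. They comprise 11 pathway factors and regulators, 14 enzymes of serine, folate and other amino acid metabolism, 9 amino acid transporters and 12 cytosolic aminoacyl-tRNA synthetases. The members were listed by symbol, with earlier results of these data known, and all 46 were found among the 23086 gene symbols of the count table. The RNA came from day 2 of differentiation of embryoid bodies, which are clumps of embryonic stem cells (ESCs) leaving the naive state. The cells derived from A2lox.cre ESCs, a mouse line built for inserting a doxycycline-inducible transgene by cassette exchange, and carried FLAG-tagged *Lhx1* in its wild-type or a mutant form. The 4 groups of 3 libraries were the mutant line treated with doxycycline for 16 h, the mutant line at 16 h without it, the wild-type line treated for 16 h and the wild-type line at 16 h without it. The labels give neither the nature of the mutation nor whether each line was 1 clone, and they do not say that replicates came from separate cultures, and the spread behind the p-values may therefore be technical. *Lhx1* encodes a homeobox factor required for head formation, and the study asked which genes it controls in cells of this kind.

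ATF4 is made when phosphorylation of the initiation factor eIF2 slows general translation, as on shortage of amino acids, stress of the endoplasmic reticulum (ER) or lack of heme. With C/EBP partners it binds composite elements near its target genes, which supply and charge amino acids: asparagine and serine synthesis, the mitochondrial folate pathway that turns serine into one-carbon units, uptake of neutral and cationic amino acids, and ligation of amino acids to tRNA. Pluripotent cells divide fast and draw on serine, glycine and threonine for nucleotides and methyl groups. Translation of *Atf4* and phosphorylation of eIF2 were not measured, and all values below are RNA levels.

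The composite element is often written TGATGNAA, or TTNCATCA on the other strand. Promoter windows of RefSeq (GRCm38.p6, from 250 bases before to 50 bases after an annotated start) were present for 38 of the 46 members, and 13 of these 38 (34.2%) held the letters on either strand, against 1219 of 27025 genes (4.51%). By class the letters were present for 4 of 11 regulators, 2 of 13 enzymes, 2 of 6 transporters and 5 of 8 synthetases. A match describes letters in a window and not a bound site. The 8 windows that follow, each 5′ to 3′ on the strand of the gene with matched letters in capitals, were chosen to set matches beside the expression results. *Chac1*, *Trib3*, *Asns* and *Aars* held a match and were lower in the mutant line, *Nupr1* rose with doxycycline in the wild-type line, *Slc7a11* held 2 matches, *Gars* held 1 and was called in no comparison, and *Mthfd2*, with the largest difference of the enzymes, held none.
Chac1: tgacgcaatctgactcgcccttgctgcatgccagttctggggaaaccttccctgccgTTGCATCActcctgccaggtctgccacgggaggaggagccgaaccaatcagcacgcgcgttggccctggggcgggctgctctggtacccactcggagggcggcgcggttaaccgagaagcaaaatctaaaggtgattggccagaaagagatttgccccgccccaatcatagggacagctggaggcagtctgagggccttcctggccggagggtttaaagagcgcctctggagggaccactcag
Trib3: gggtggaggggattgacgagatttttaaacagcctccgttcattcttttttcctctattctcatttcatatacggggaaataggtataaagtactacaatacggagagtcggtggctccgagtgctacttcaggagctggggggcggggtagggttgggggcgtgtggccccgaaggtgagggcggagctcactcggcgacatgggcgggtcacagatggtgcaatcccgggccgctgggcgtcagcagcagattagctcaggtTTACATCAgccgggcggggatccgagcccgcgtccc
Nupr1: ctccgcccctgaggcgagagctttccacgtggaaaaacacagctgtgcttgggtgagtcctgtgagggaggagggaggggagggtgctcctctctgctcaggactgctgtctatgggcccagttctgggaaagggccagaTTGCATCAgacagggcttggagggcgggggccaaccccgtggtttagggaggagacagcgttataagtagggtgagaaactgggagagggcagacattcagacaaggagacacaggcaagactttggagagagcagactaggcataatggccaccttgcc
Asns: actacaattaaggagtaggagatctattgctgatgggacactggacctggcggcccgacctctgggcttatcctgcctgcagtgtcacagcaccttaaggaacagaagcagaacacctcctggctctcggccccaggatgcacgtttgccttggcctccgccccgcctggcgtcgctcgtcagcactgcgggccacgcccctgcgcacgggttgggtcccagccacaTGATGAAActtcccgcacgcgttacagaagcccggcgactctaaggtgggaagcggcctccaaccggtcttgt
Aars: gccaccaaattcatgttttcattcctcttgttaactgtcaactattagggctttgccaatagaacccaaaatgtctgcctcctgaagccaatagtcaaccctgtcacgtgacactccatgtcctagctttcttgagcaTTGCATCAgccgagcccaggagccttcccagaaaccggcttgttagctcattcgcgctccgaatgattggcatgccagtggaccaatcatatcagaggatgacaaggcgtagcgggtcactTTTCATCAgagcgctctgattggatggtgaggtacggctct
Slc7a11: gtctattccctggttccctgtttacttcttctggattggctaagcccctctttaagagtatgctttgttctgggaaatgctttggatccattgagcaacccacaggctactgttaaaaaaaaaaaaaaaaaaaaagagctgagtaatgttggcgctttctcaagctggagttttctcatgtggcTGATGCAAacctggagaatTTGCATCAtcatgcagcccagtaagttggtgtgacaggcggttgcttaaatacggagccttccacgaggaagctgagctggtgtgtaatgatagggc
Gars: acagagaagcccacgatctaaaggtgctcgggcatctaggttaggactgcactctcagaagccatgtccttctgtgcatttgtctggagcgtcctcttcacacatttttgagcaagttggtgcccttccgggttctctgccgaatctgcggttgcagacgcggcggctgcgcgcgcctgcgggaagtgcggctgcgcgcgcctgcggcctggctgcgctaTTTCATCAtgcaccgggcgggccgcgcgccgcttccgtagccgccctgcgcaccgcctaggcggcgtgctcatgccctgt
Mthfd2: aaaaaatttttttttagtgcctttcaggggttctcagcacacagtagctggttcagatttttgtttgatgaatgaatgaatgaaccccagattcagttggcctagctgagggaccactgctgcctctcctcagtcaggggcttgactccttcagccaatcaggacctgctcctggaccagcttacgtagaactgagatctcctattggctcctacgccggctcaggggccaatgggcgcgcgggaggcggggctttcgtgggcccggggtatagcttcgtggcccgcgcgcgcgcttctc
The windows lie at chr2:119350992-119351291 on the plus strand for *Chac1*, chr2:152344011-152344310 on the minus strand for *Trib3* and chr7:126625421-126625720 on the minus strand for *Nupr1*. Those of *Asns* (chr6:7693160-7693459) and *Slc7a11* (chr3:50443564-50443863) are on the minus strand, as is that of *Mthfd2* (chr6:83317555-83317854). The windows of *Aars* (chr8:111033592-111033891) and *Gars* (chr6:55037751-55038050) are on the plus strand. Counted from the start, with -1 the base before it, the match began at -193 in *Chac1*, at 15 in *Trib3*, at -110 in *Nupr1*, at -23 in *Asns* and at -30 in *Gars*. *Aars* held matches at -112 and 10, and *Slc7a11* at -66 on the strand shown and -47 on the other.

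Each library held 4289984 to 4850393 counts. *Lhx1* had 249.9, 260.2 and 235 CPM (counts scaled to an equal library total) in mutant embryoid bodies with doxycycline, 0.429, 0.407 and 0.428 CPM in mutant ones without it, 307, 289 and 293 CPM in wild-type ones with doxycycline and 3.33, 1.81 and 1.12 CPM in wild-type ones without it, so its RNA was high with doxycycline in both lines. The 9 markers of ESCs and epiblast summed to 6025–6279 CPM in mutant and 5428–6024 CPM in wild-type libraries. The 8 markers of extraembryonic endoderm summed to 19.9–26.4 CPM in mutant and 10.4–17.9 CPM in wild-type libraries, the 7 of trophoblast to 27.1–29.5 CPM in mutant, 34.1–43.0 CPM in treated wild-type and 16.1–22.4 CPM in untreated wild-type libraries, and the 8 of fibroblasts to 21.4–26.5 CPM in mutant and 18.3–32.1 CPM in wild-type libraries. No marker was at 0 in every library, but only 2 of the 8 endoderm, 3 of the 7 trophoblast and 5 of the 8 fibroblast markers were tested. In the wild-type line 1 of the 3 trophoblast markers tested was called higher with doxycycline, and their log2 fold changes ran from -0.44 to 1.62. The endoderm sum, and by a narrow margin the stem cell and epiblast sum, thus moved with the line. The part of cell composition in the results was not tested. Both line comparisons also moved with chromosome: without doxycycline the median log2 fold change of mutant over wild type was -0.39 over the 624 genes tested on chromosome 8, -0.19 over 944 genes on chromosome 11 and 0.49 over 416 genes on chromosome 14, against -0.03 to 0.08 on the other 17 chromosomes. Gene copy number was not measured. A pair of libraries stood apart. The third wild-type library without doxycycline had 229 CPM of the hypoxia gene *Bnip3*, against 58.5 and 63.3 CPM in its replicates, and the second wild-type library with doxycycline had 14750 CPM of *Rn45s*, ribosomal RNA, against at most 2615 CPM in any other library.

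Most members tested were called lower in the mutant line, with and without doxycycline. With doxycycline 29 of the 45 members tested were lower in the mutant line, 2 were higher and 14 were not called, where 22.4% of all 12322 genes tested were called lower, 21.9% higher and 44.4% either way at an adjusted p under 0.05 in edgeR's quasi-likelihood test. Without doxycycline 25 members were lower, 1 was higher and 19 were not called, against 22.6% lower, 23.0% higher and 45.5% either way among all genes. The median log2 fold change of mutant over wild type over the members was -0.26 with and -0.20 without doxycycline, beside 0.01 and 0.00 over all genes tested. The 46th member, *Atf3*, a stress-induced factor, had 4 to 14 counts per library and was not tested. The comparisons share no library: 23 members were lower in both, which is 79.3% of the 29 and 92.0% of the 25, and of all genes called lower 2007 were shared, 72.6% and 72.2% of the lists. *Aldh18a1*, *Iars*, *Nupr1*, *Sesn2*, *Tars* and *Wars* were lower with doxycycline and not called without, and *Cbs* and *Cebpb* the reverse, but for none of these 8 did the test of the difference between the comparisons pass its threshold. Whether fewer cells of a type or less RNA per cell gave a lower value cannot be told apart in such bulk samples.

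**Figure D1:**
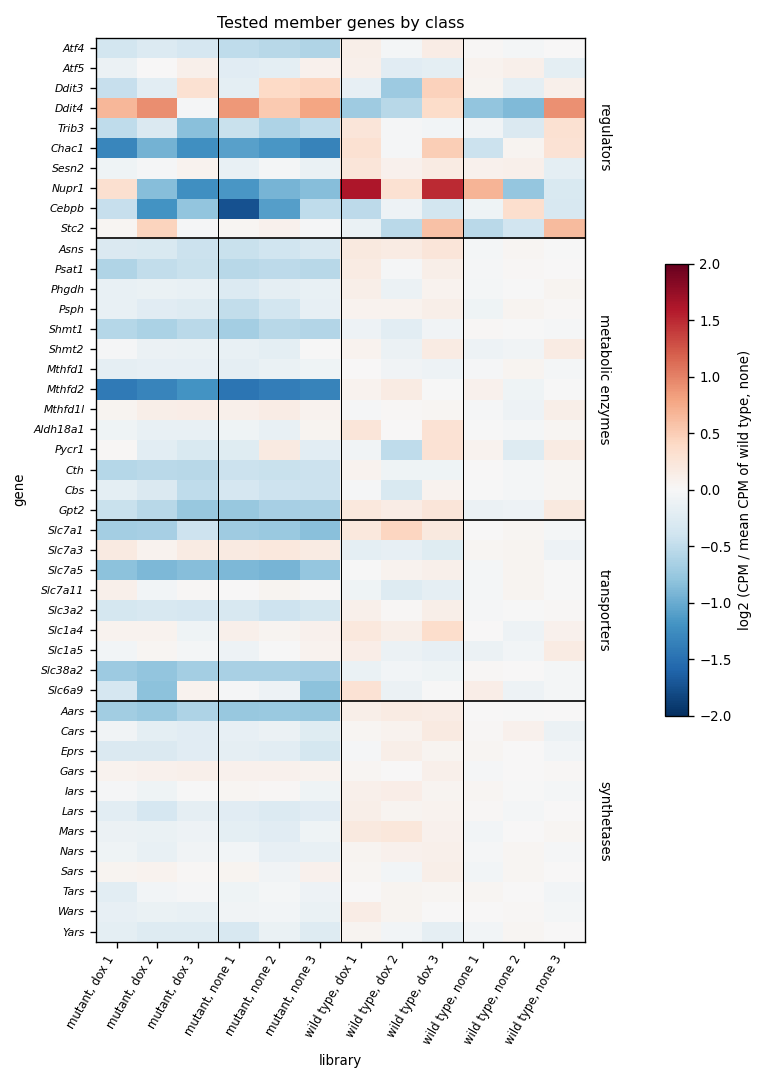
Log2 ratio of CPM to the mean of the wild-type libraries without doxycycline (color scale), for the 45 tested members (rows, by class) in the 12 libraries (columns). The 6 mutant libraries are blue, below that mean, for most enzymes and synthetases, while the wild-type libraries with and without doxycycline differ little.

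All 4 classes had a median below 0, and the share called lower differed between them. With doxycycline 5 of 10 regulators, 10 of 14 enzymes, 4 of 9 transporters and 10 of 12 synthetases were lower in the mutant line, with median log2 fold changes of -0.29, -0.31, -0.37 and -0.20. Without doxycycline 4 regulators, 10 enzymes, 4 transporters and 7 synthetases were lower, with medians of -0.32, -0.36, -0.26 and -0.14. Among all genes tested, 22.4% were called lower with and 22.6% without doxycycline. The only members called higher were transporters. Differences between classes were not tested, and the transporter median without doxycycline was -0.06 when the third mutant library without doxycycline was left out and -0.38 when the first was.

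Summed over its genes, the synthetase class had 2727 ± 48.6 CPM in mutant embryoid bodies with doxycycline and 2722 ± 40.0 CPM in mutant ones without, against 3273 ± 23.6 CPM in wild-type ones with doxycycline and 3099 ± 29.3 CPM in wild-type ones without (mean ± SD, n = 3 each). The enzymes summed to 1322 ± 5.55 CPM in treated and 1310 ± 36.6 CPM in untreated mutant libraries, against 1666 ± 66.8 CPM in treated and 1638 ± 30.5 CPM in untreated wild-type ones. The transporters summed to 1283 ± 38.1 CPM in treated and 1311 ± 1.52 CPM in untreated mutant libraries, against 1666 ± 14.8 CPM in treated and 1725 ± 29.0 CPM in untreated wild-type ones. In these 3 classes each mutant library lay below each wild-type library. The regulators, a sum led by *Atf4* and *Ddit4*, overlapped between lines, at 470.0 ± 49.6 CPM in treated and 457 ± 17.9 CPM in untreated mutant libraries and 478 ± 56.0 CPM in treated and 468 ± 71.8 CPM in untreated wild-type ones.

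**Figure D2:**
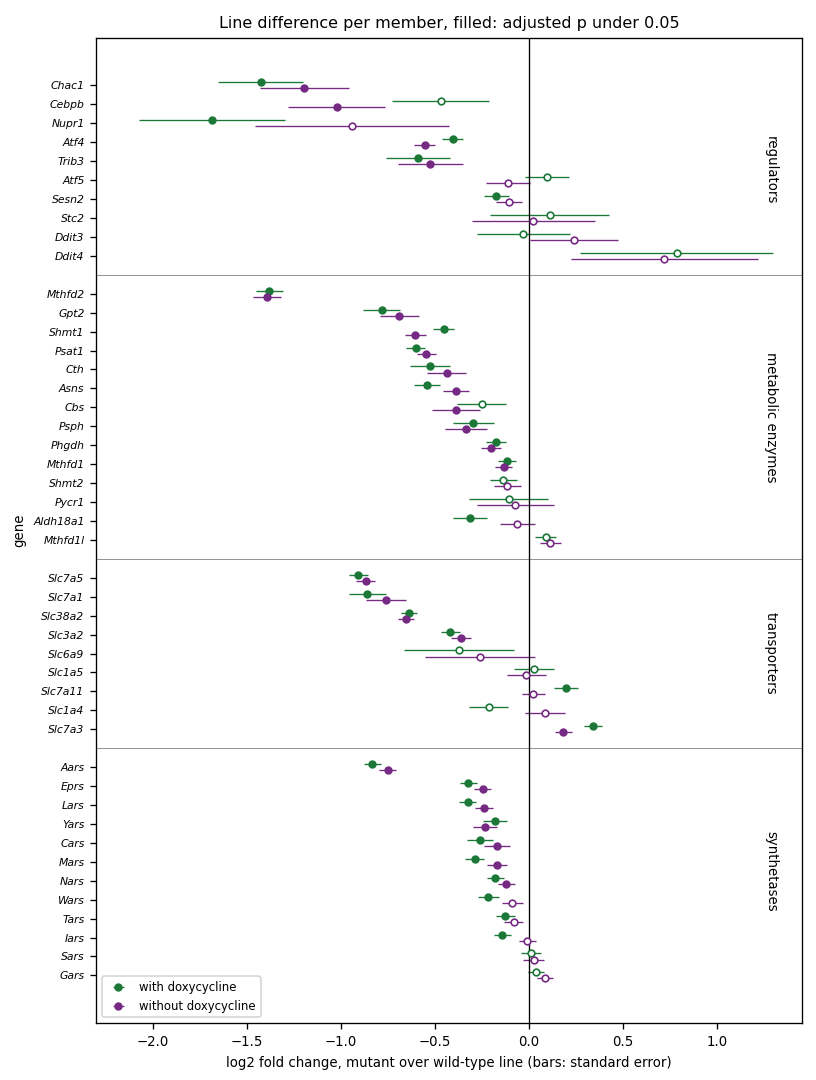
Log2 fold change of the mutant over the wild-type line for the 45 tested members, by class and ordered by the value without doxycycline; bars are standard errors, filled points passed an adjusted p under 0.05. Most points lie left of 0, *Mthfd2* near -1.39 both without and with doxycycline, while *Slc7a3* lies to the right in both.

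Of the regulators, *Atf4* itself was lower in the mutant line. *Atf4* (chr15:80255184-80257541) had 139, 149 and 142 CPM in mutant embryoid bodies with doxycycline, against 196, 175 and 198 CPM in wild-type ones with doxycycline. Without doxycycline it had 127, 122 and 118 CPM in mutant libraries, against 183, 175 and 180.2 CPM in wild-type ones. No mutant library reached the level of any wild-type library, and the log2 fold change was -0.40 ± 0.06 with doxycycline (adjusted p = 1.80e-08) and -0.55 ± 0.06 without (adjusted p = 4.53e-12), standard errors following each value. *Atf5*, a related factor controlled by the same kind of translation, was not called: it had 26.5, 28.8 and 30.7 CPM in mutant and 30.9, 24.7 and 25.0 CPM in wild-type libraries with doxycycline. It had 24.5, 25.0 and 30.4 CPM in mutant against 30.2, 31.0 and 25.1 CPM in wild-type libraries without doxycycline, with overlapping groups and adjusted p of 0.526 and 0.458.

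*Chac1*, which degrades glutathione, had the largest called difference of the regulators without doxycycline. It had 3.51, 4.49 and 3.71 CPM in mutant libraries with doxycycline, against 10.7, 8.55 and 12.2 CPM in wild-type ones. It had 4.08, 3.87 and 3.42 CPM in mutant libraries without doxycycline, against 6.42, 9.04 and 10.5 CPM in wild-type ones. The groups did not overlap, and log2 fold changes were -1.43 ± 0.23 with (adjusted p = 5.14e-07) and -1.19 ± 0.24 without doxycycline (adjusted p = 3.41e-05). *Trib3*, a pseudokinase that ATF4 induces and that restrains it in turn, had 9.87, 11.5 and 7.83 CPM in mutant libraries with doxycycline, against 16.7, 13.8 and 13.5 CPM in wild-type ones. It had 10.3, 9.16 and 9.84 CPM in mutant against 13.3, 11.5 and 17.3 CPM in wild-type libraries without doxycycline. Its log2 fold changes were -0.59 ± 0.17 (adjusted p = 0.00397) and -0.53 ± 0.17 (adjusted p = 0.0105), and calls were lost without the third mutant library in the first case (-0.45, adjusted p = 0.0515) and without the third wild-type library in the second (-0.35, adjusted p = 0.144).

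*Nupr1*, a small stress-induced chromatin protein, rested on 4 to 26 counts per library. It had 2.41, 1.07 and 0.824 CPM in mutant libraries with doxycycline, against 5.94, 2.38 and 5.44 CPM in wild-type ones. It had 0.859, 1.02 and 1.07 CPM in mutant against 3.09, 1.13 and 1.57 CPM in wild-type libraries without doxycycline. With doxycycline the groups overlapped slightly, 1 mutant library being just above the lowest wild-type one. The log2 fold change was -1.68 ± 0.39 with doxycycline (adjusted p = 0.000338) and -0.94 ± 0.52 without (adjusted p = 0.135). *Cebpb*, a C/EBP factor that can pair with ATF4, had 5.70, 3.42 and 4.53 CPM in mutant and 5.49, 7.36 and 6.09 CPM in wild-type libraries with doxycycline. It had 2.36, 3.66 and 5.56 CPM in mutant against 7.37, 9.95 and 6.28 CPM in wild-type libraries without doxycycline, where it was lower in the mutant line (-1.02 ± 0.26, adjusted p = 0.000843). *Sesn2*, which links leucine to mTORC1, had 100.4, 105 and 111 CPM in mutant and 125, 113 and 119 CPM in wild-type libraries with doxycycline (-0.17 ± 0.07, adjusted p = 0.0299). It had 95.8, 103 and 96.7 CPM in mutant against 112, 114 and 92.6 CPM in wild-type libraries without doxycycline. The *Sesn2* call with doxycycline was lost when any 1 of 4 libraries was left out (adjusted p up to 0.150), and a call without doxycycline was gained without the third wild-type library (-0.20, adjusted p = 0.0173).

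*Ddit3*, which encodes CHOP, the factor of prolonged ER stress, was low in every group. It had 4.82, 5.77 and 8.24 CPM in mutant and 5.94, 4.04 and 9.13 CPM in wild-type libraries with doxycycline. It had 5.80, 8.75 and 8.98 CPM in mutant against 6.90, 5.88 and 7.17 CPM in wild-type libraries without doxycycline, with overlapping groups and no call. *Stc2*, a secreted glycoprotein, was not called either. *Ddit4*, an inhibitor of mTORC1 that hypoxia also induces, is described here because its values, once seen, ran the other way. It had 163, 197 and 102 CPM in mutant and 62.8, 70.3 and 133 CPM in wild-type libraries with doxycycline. It had 188, 148 and 178 CPM in mutant against 59.9, 56.1 and 194 CPM in wild-type libraries without doxycycline. The third wild-type libraries were the high ones, as for *Bnip3*, which had 107 and 229 CPM there; the part of hypoxia was not tested. The log2 fold change of *Ddit4* was 0.79 ± 0.51 with (adjusted p = 0.257) and 0.72 ± 0.50 without doxycycline (adjusted p = 0.282), and 1.56 ± 0.41 without doxycycline once the third wild-type library was left out (adjusted p = 0.0193).

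**Figure D3:**
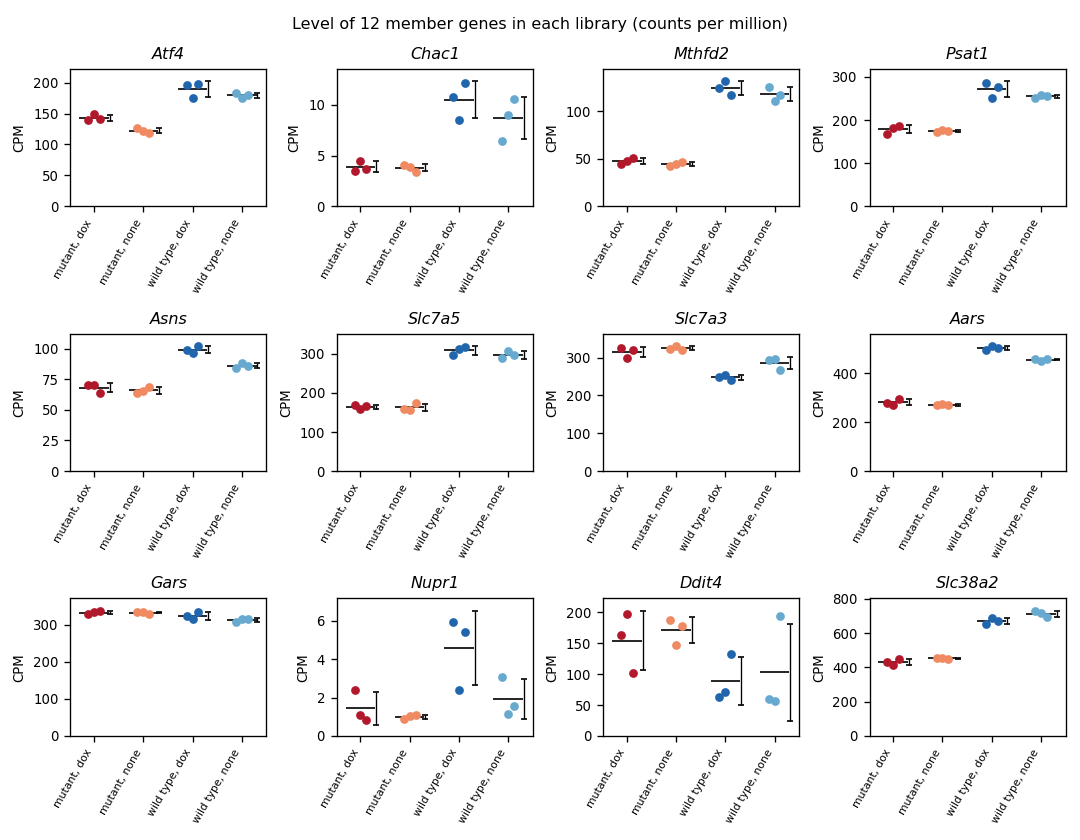
CPM of 12 members in each of the 12 libraries (points), with the group mean (line) and SD (bar), on linear axes from 0. The mutant groups, drawn left of the wild-type groups, are lower for *Atf4*, *Chac1*, *Mthfd2*, *Psat1*, *Asns*, *Slc7a5*, *Slc38a2* and *Aars*, level for *Gars* and higher for *Slc7a3*; the third wild-type libraries stand high for *Ddit4*.

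Of the enzymes, *Mthfd2* differed most. *Mthfd2* (chr6:83305691-83325908), the mitochondrial methylenetetrahydrofolate dehydrogenase of dividing cells, had 44.3, 47.2 and 51.1 CPM in mutant libraries with doxycycline, against 124, 131 and 117 CPM in wild-type ones. Without doxycycline it had 42.7, 45.0 and 46.6 CPM in mutant libraries, against 125, 111 and 117 CPM in wild-type ones. The mutant level was 0.384 times the wild-type level with doxycycline (log2 fold change -1.38 ± 0.07, adjusted p = 3.77e-23) and 0.381 times without (-1.39 ± 0.07, adjusted p = 8.24e-23), the groups far apart in both. The other folate enzymes among the members differed less or were not called. *Shmt1*, the cytosolic serine hydroxymethyltransferase, had 121, 115 and 123 CPM in mutant and 166, 154 and 170.2 CPM in wild-type libraries with doxycycline (-0.45 ± 0.06, adjusted p = 1.81e-09). It had 112, 122 and 119 CPM in mutant against 183, 178 and 177 CPM in wild-type libraries without doxycycline (-0.60 ± 0.06, adjusted p = 2.15e-13). *Shmt2*, its mitochondrial counterpart and the step before MTHFD2, had 111, 104 and 102 CPM in mutant and 118, 104 and 126 CPM in wild-type libraries with doxycycline. It had 102, 98.3 and 112 CPM in mutant against 105, 108 and 126 CPM in wild-type libraries without doxycycline. These *Shmt2* groups overlapped (-0.14 ± 0.07 and -0.11 ± 0.07, adjusted p = 0.116 and 0.190), with a call only when the second wild-type library with doxycycline was left out (-0.21, adjusted p = 0.0166).

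*Mthfd1l*, which releases formate from the mitochondrion in the step after MTHFD2, averaged 162 ± 5.01 CPM in mutant and 152 ± 2.90 CPM in wild-type libraries with doxycycline and 164 ± 4.63 CPM in mutant against 151 ± 11.9 CPM in wild-type libraries without (SD, n = 3), and was not called. *Mthfd1*, the cytosolic trifunctional enzyme, was slightly lower, at 304 ± 2.55 CPM in mutant against 329.9 ± 13.3 CPM in wild-type libraries with doxycycline (log2 fold change -0.12 ± 0.05, adjusted p = 0.0328) and 312 ± 10.9 CPM in mutant against 342 ± 10.4 CPM in wild-type libraries without (-0.13 ± 0.05, adjusted p = 0.0125). That small *Mthfd1* call was lost when any 1 of 4 libraries was left out in the groups with doxycycline (adjusted p up to 0.186) and when either of 2 others was left out in the groups without it (adjusted p up to 0.0880).

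All 3 enzymes that make serine from glycolytic 3-phosphoglycerate were lower in the mutant line. *Psat1* (chr19:15904678-15947337), the transaminase in the middle of that pathway, had 169, 182 and 187 CPM in mutant libraries with doxycycline, against 287, 252 and 277 CPM in wild-type ones. It had 173, 178 and 174 CPM in mutant against 251, 258 and 256 CPM in wild-type libraries without doxycycline. The log2 fold changes were -0.60 ± 0.05 (adjusted p = 9.35e-15) and -0.54 ± 0.05 (adjusted p = 3.75e-13) with no overlap. *Phgdh*, the first enzyme, differed less, with 191, 194 and 191 CPM in mutant and 230.1, 196 and 223 CPM in wild-type libraries with doxycycline (-0.17 ± 0.05, adjusted p = 0.0063). It had 176, 187 and 191 CPM in mutant against 206, 210.0 and 221 CPM in wild-type libraries without doxycycline (-0.20 ± 0.05, adjusted p = 0.00172). The *Phgdh* call with doxycycline was lost without the first wild-type library (-0.13, adjusted p = 0.0731). *Psph*, the phosphatase that ends the pathway, averaged 25.8 ± 1.03 CPM in mutant against 31.7 ± 0.614 CPM in wild-type libraries with doxycycline and 23.7 ± 2.78 CPM in mutant against 29.9 ± 1.42 CPM in wild-type libraries without (-0.30 ± 0.11 and -0.34 ± 0.11, adjusted p = 0.0222 and 0.0109). Its call was lost when any 1 of 3 libraries was left out in the groups with doxycycline (adjusted p up to 0.0754) and without the first mutant library in the groups without it (adjusted p = 0.0815).

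*Asns* (chr6:7675169-7693254), asparagine synthetase and the best studied target of the composite element, had 70.6, 69.9 and 63.9 CPM in mutant libraries with doxycycline, against 98.5, 96.4 and 102 CPM in wild-type ones. Without doxycycline it had 63.3, 65.5 and 68.7 CPM in mutant libraries, against 84.2, 88.2 and 85.8 CPM in wild-type ones. The groups were well apart, with log2 fold changes of -0.54 ± 0.07 (adjusted p = 1.52e-09) and -0.39 ± 0.07 (adjusted p = 5.71e-06). *Gpt2*, mitochondrial alanine aminotransferase, had 31.8, 29.5 and 25.8 CPM in mutant and 50.1, 48.0 and 51.3 CPM in wild-type libraries with doxycycline (-0.78 ± 0.10, adjusted p = 2.19e-09). It had 25.8, 27.3 and 27.8 CPM in mutant against 40.0, 40.5 and 49.8 CPM in wild-type libraries without doxycycline (-0.69 ± 0.10, adjusted p = 1.40e-07). *Cth*, which makes cysteine from cystathionine, had 23.0, 23.5 and 23.1 CPM in mutant and 35.9, 32.1 and 32.2 CPM in wild-type libraries with doxycycline (-0.52 ± 0.11, adjusted p = 4.91e-05). It had 25.1, 25.0 and 25.2 CPM in mutant against 34.0, 33.0 and 35.0 CPM in wild-type libraries without doxycycline (-0.44 ± 0.10, adjusted p = 0.00048).

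*Cbs*, the step before *Cth*, was lower in the mutant line without doxycycline (17.8 ± 0.612 CPM in mutant against 23.2 ± 0.700 CPM in wild-type libraries, log2 fold change -0.39 ± 0.13, adjusted p = 0.0111), a call that DESeq2 did not make (adjusted p = 0.0555), and passed the test with doxycycline only without the second wild-type library (adjusted p = 0.0365). Of the proline enzymes, *Aldh18a1* was lower with doxycycline (38.7 ± 1.01 CPM in mutant against 48.1 ± 4.95 CPM in wild-type libraries, -0.32 ± 0.09, adjusted p = 0.00358), while *Pycr1*, at group means of 7.54 to 8.41 CPM, was not called. Per kilobase of exon, *Phgdh* was the most abundant enzyme, at 74.3 CPM per kb in mutant and 85.4 CPM per kb in wild-type libraries without doxycycline, and *Pycr1* the least, at 2.03 CPM per kb in mutant and 2.14 CPM per kb in wild-type libraries. *Mthfd2*, at 12.8 CPM per kb in the mutant line, was below *Shmt2* (33.5 CPM per kb) and *Mthfd1l* (36.9 CPM per kb) there, whereas in wild-type libraries these genes were at 33.7, 36.2 and 34.1 CPM per kb.

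Among the transporters 4 were lower in both comparisons. LAT1, encoded by *Slc7a5* (chr8:121881150-121907694), exchanges large neutral amino acids such as leucine as a heterodimer with the 4F2 heavy chain encoded by *Slc3a2*. *Slc7a5* had 169, 159.6 and 166 CPM in mutant libraries with doxycycline, against 297, 312 and 318 CPM in wild-type ones. It had 159.9, 157 and 173 CPM in mutant against 289, 307 and 297 CPM in wild-type libraries without doxycycline. Its log2 fold changes were -0.91 ± 0.05 (adjusted p = 3.35e-22) and -0.87 ± 0.05 (adjusted p = 3.33e-21). *Slc3a2* had 162, 166 and 164 CPM in mutant and 222, 212 and 225 CPM in wild-type libraries with doxycycline (-0.42 ± 0.05, adjusted p = 7.20e-10). It had 167, 157 and 163 CPM in mutant against 206, 206 and 212 CPM in wild-type libraries without doxycycline (-0.36 ± 0.05, adjusted p = 4.03e-08). Both subunits were thus lower in each mutant library than in any wild-type library. *Slc38a2*, or SNAT2, a sodium-coupled carrier of small neutral amino acids that amino acid shortage induces, had 432, 412 and 446 CPM in mutant and 653, 687 and 669 CPM in wild-type libraries with doxycycline (-0.64 ± 0.04, adjusted p = 6.49e-19). It had 454, 457 and 449 CPM in mutant against 728, 717 and 695 CPM in wild-type libraries without doxycycline (-0.65 ± 0.04, adjusted p = 2.17e-19).

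The cationic amino acid transporters CAT1 and CAT3 moved in opposite directions. *Slc7a1*, which encodes CAT1, had 24.6, 24.6 and 29.5 CPM in mutant libraries with doxycycline, against 45.5, 52.5 and 45.0 CPM in wild-type ones. It had 23.8, 23.4 and 22.0 CPM in mutant against 39.5, 40.0 and 37.9 CPM in wild-type libraries without doxycycline (-0.86 ± 0.10 and -0.76 ± 0.11, adjusted p = 2.35e-10 and 3.14e-08). *Slc7a3* (chrX:101079210-101086020), which encodes CAT3, had 324, 299 and 319.7 CPM in mutant libraries with doxycycline, against 249, 254 and 241 CPM in wild-type ones. It had 322, 330.1 and 320.4 CPM in mutant against 294, 297 and 266 CPM in wild-type libraries without doxycycline. It was the one member called higher in the mutant line in both comparisons (0.34 ± 0.05, adjusted p = 2.98e-08, and 0.18 ± 0.05, adjusted p = 0.00112), with no overlap. Per kilobase of exon *Slc7a3* was the more abundant of the 2 genes throughout, at 85.7 CPM per kb for *Slc7a3* and 2.00 CPM per kb for *Slc7a1* in mutant libraries without doxycycline.

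*Slc7a11*, the cystine carrier of system xc- and a target of both ATF4 and NRF2, had 126, 113 and 119.7 CPM in mutant and 111, 98.1 and 103 CPM in wild-type libraries with doxycycline, where it was higher in the mutant line (0.20 ± 0.06, adjusted p = 0.00732). Without doxycycline it had 118, 122 and 119 CPM in mutant and 115, 122 and 117 CPM in wild-type libraries (0.02 ± 0.06, adjusted p = 0.772). The call with doxycycline was lost without the first mutant library (0.16, adjusted p = 0.0659) or the second wild-type library (0.16, adjusted p = 0.0597). *Slc1a4* and *Slc1a5*, exchangers of alanine, serine, cysteine and glutamine, and the glycine transporter gene *Slc6a9* were called in no comparison, with log2 fold changes of mutant over wild type between -0.37 and 0.09.

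The synthetases were mostly lower by small amounts that the narrow spread between replicates resolved. *Aars* (chr8:111033144-111057664), alanyl-tRNA synthetase, had the largest fold change of the class. It had 279.7, 271 and 296 CPM in mutant libraries with doxycycline, against 495, 511 and 503 CPM in wild-type ones. It had 269, 273 and 269 CPM in mutant against 456, 451 and 457 CPM in wild-type libraries without doxycycline. The log2 fold changes were -0.83 ± 0.04 (adjusted p = 2.55e-23) and -0.75 ± 0.04 (adjusted p = 2.95e-21). Relative to the median of chromosome 8, where genes were lower as a whole, *Aars* was at -0.46 with and -0.36 without doxycycline. On the same scale *Eprs* was at -0.38 and -0.29 and *Lars* at -0.35 and -0.26, each against its own chromosome. *Eprs*, the glutamyl-prolyl enzyme of the multisynthetase complex, had 377, 379 and 392 CPM in mutant and 452, 502 and 480.5 CPM in wild-type libraries with doxycycline (-0.32 ± 0.05, adjusted p = 3.61e-08). It had 406, 398 and 362 CPM in mutant against 473, 465 and 444 CPM in wild-type libraries without doxycycline (-0.24 ± 0.05, adjusted p = 1.12e-05). *Lars*, the leucyl enzyme, had 243, 223 and 247 CPM in mutant and 306, 293 and 294 CPM in wild-type libraries with doxycycline (-0.33 ± 0.05, adjusted p = 8.22e-08). It had 239, 233 and 241 CPM in mutant against 287, 273 and 284 CPM in wild-type libraries without doxycycline (-0.24 ± 0.05, adjusted p = 3.45e-05).

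*Mars*, the methionyl enzyme, had 176, 175 and 179 CPM in mutant and 219.6, 223 and 204 CPM in wild-type libraries with doxycycline (-0.29 ± 0.05, adjusted p = 6.64e-06). It had 167, 164 and 179 CPM in mutant against 185, 192 and 197 CPM in wild-type libraries without doxycycline (-0.17 ± 0.05, adjusted p = 0.00695). Its gene lies 2467 bases from that of *Ddit3* on chromosome 10, and the strand setting of the counting is not given. *Nars*, for asparagine, had 288, 276 and 289 CPM in mutant and 316, 323 and 325 CPM in wild-type libraries with doxycycline (-0.18 ± 0.05, adjusted p = 0.00107). It had 295, 273 and 275 CPM in mutant against 299.7, 314 and 301 CPM in wild-type libraries without doxycycline (-0.12 ± 0.05, adjusted p = 0.0296). *Wars*, for tryptophan, had 130.0, 132 and 131 CPM in mutant and 161, 150.3 and 146 CPM in wild-type libraries with doxycycline (-0.22 ± 0.06, adjusted p = 0.00119). It had 138, 139 and 132 CPM in mutant against 146, 147 and 142 CPM in wild-type libraries without doxycycline, where it was not called (adjusted p = 0.203).

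Among the remaining synthetases *Cars* and *Yars*, for cysteine and tyrosine, were lower in both comparisons, by log2 fold changes of -0.26 and -0.18 with and -0.17 and -0.23 without doxycycline. *Iars* and *Tars*, for isoleucine and threonine, were lower with doxycycline (-0.14 and -0.13). *Gars* and *Sars*, for glycine and serine, were called in neither comparison (0.04 and 0.01 with, 0.09 and 0.03 without doxycycline). *Gars* had the highest CPM per kb of the class, at 106 in mutant and 100.2 in wild-type libraries without doxycycline. By mean CPM, *Eprs* (461) and *Aars* (455) were above *Gars* (313) in these wild-type libraries. In the mutant libraries without doxycycline *Eprs* (389) was above *Gars* (332), and *Aars* (270) was below it. Leaving out single libraries ended the calls without doxycycline of *Cars* (adjusted p up to 0.192), *Nars* (up to 0.136) and *Mars* (0.0512 without the second mutant library), and those with doxycycline of *Iars* (up to 0.0711), *Tars* (up to 0.305) and *Yars* (up to 0.164).

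Most of the members that were lower lie on other chromosomes than 8, 11 and 14, where lines differed as a whole. Of the 38 tested members outside them 25 (65.8%) were lower with and 21 (55.3%) without doxycycline, where 18.9% of the 9609 genes tested outside these chromosomes were lower in each comparison. *Slc7a5*, *Aars* and *Gpt2* lie on chromosome 8 and *Shmt1* on chromosome 11. Relative to the median of their chromosome they were lower by smaller amounts without doxycycline, at -0.48, -0.36, -0.30 and -0.42 on the log2 scale, while *Mthfd2* on chromosome 6 was at -1.43. On chromosome 11 *Pycr1*, *Slc1a4* and *Stc2* were not called. This grouping by chromosome was chosen after the medians had been seen.

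Members with and without the composite letters in their promoter windows were both among those called lower, and the difference between them was not tested. Of the 12 tested members whose window held a match, 8 were lower with and 5 without doxycycline, with median log2 fold changes of -0.20 and -0.16. Of the 25 tested members whose window held none, 15 were lower in each comparison, with medians of -0.30 with and -0.24 without doxycycline. *Mthfd2*, *Psat1*, *Slc38a2* and *Atf4* itself are among these 25. Over all genes tested, 22.4% were lower with and 22.6% without doxycycline.

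Doxycycline changed few of these genes in either line. In the wild-type line 4 of 45 members were called, where 5.32% of all genes tested were called, 2.76% higher and 2.56% lower. *Slc7a3* fell with doxycycline, with 249, 254 and 241 CPM in treated and 294, 297 and 266 CPM in untreated wild-type libraries (log2 fold change of doxycycline over none -0.20 ± 0.05, adjusted p = 0.00369). *Nupr1* rose, with 5.94, 2.38 and 5.44 CPM in treated and 3.09, 1.13 and 1.57 CPM in untreated libraries (1.26 ± 0.37, adjusted p = 0.029), and the groups overlapped. *Aars* had 495, 511 and 503 CPM in treated and 456, 451 and 457 CPM in untreated libraries (0.14 ± 0.04, adjusted p = 0.0261), and *Mars* 219.6, 223 and 204 CPM in treated against 185, 192 and 197 CPM in untreated libraries (0.17 ± 0.05, adjusted p = 0.0357), neither overlapping. None of the 4 calls remained without the second untreated wild-type library (adjusted p of 0.0547 for *Slc7a3*, 0.0947 for *Aars*, 0.0898 for *Mars* and 0.200 for *Nupr1*). DESeq2 called *Slc7a3* alone.

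At an unadjusted p under 0.05, the wild-type response included 14 of 45 members, beside 1966 of all 12322 genes. *Slc7a1* (0.28 ± 0.09, adjusted p = 0.0688) and *Asns* (0.20 ± 0.07, adjusted p = 0.06) were nearest to the threshold, their treated libraries all above the untreated ones. *Atf4* had 196, 175 and 198 CPM in treated and 183, 175 and 180.2 CPM in untreated wild-type libraries (0.08 ± 0.05, adjusted p = 0.539). The median over the members was 0.05, beside 0.00 over all genes.

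In the mutant line edgeR called 0 of 45 members with doxycycline, where 0.0162% of all genes were called, and 1 member had an unadjusted p under 0.05, beside 578 of all genes; DESeq2 and limma-voom also called 0. That member was *Atf4*, with 139, 149 and 142 CPM in treated and 127, 122 and 118 CPM in untreated mutant libraries (0.23 ± 0.06, adjusted p = 0.250), whose groups did not overlap. The response of the mutant line differed from that of the wild-type line for 0 members in edgeR's test of the difference, against 2.49% of all genes (1.09% higher and 1.40% lower). DESeq2 and limma-voom also gave 0 there, and 3 members had an unadjusted p under 0.05, beside 1590 of all genes. Leaving out both libraries that stood apart gave 1 member, *Slc7a3* (difference of responses 0.23, adjusted p = 0.0351), which is 0.16 ± 0.07 with all libraries (adjusted p = 0.263).

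**Figure D4:**
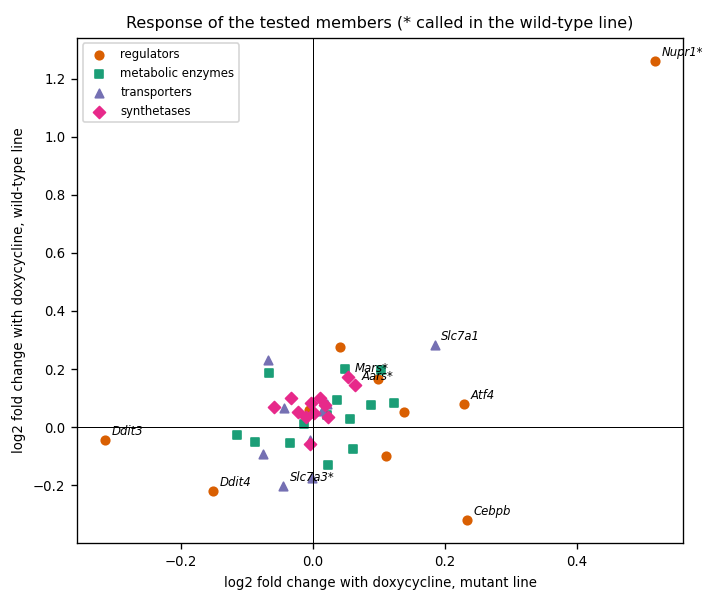
Log2 fold change with doxycycline in the mutant line (x axis) and in the wild-type line (y axis) for the 45 tested members, marked by class; an asterisk marks the 4 called in the wild-type line. Most points lie close to 0 on both axes, and *Nupr1* is highest on the y axis at 1.26.

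Among related genes that were not members, the other cytosolic synthetases were lower and the remaining lists were mixed. Of 11 other genes for cytosolic synthetases and their scaffold, 7 were lower in the mutant line in each comparison and 0 higher, among them *Kars*, the lysyl enzyme, on chromosome 8 (337 ± 6.53 CPM in mutant against 505 ± 12.5 CPM in wild-type libraries with doxycycline, and 345 ± 7.77 CPM in mutant against 530.0 ± 9.62 CPM in wild-type libraries without), and the scaffold gene *Aimp1* on chromosome 3 (log2 fold change -0.40 and -0.58). The 7 of 11 are 63.6%, where 22.4% of all genes were lower with and 22.6% without doxycycline. With genes on chromosomes 8, 11 and 14 left out, 4 of 8 were lower in each, where 18.9% of all genes were. The mitochondrial synthetases, encoded by separate genes, were lower in 4 and higher in 2 of 17 in each comparison, shares close to or below the 22.6% called lower among all genes. *Cars2* on chromosome 8 was lowest (-0.79 with and -0.89 without doxycycline) and *Iars2* was higher (0.30 and 0.29).

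Of 15 other folate and one-carbon genes tested, 6 (40%) were lower and 3 (20%) higher in each comparison. Of all genes tested, 22.4% were lower and 21.9% higher with doxycycline, and 22.6% and 23.0% without. Outside chromosomes 8, 11 and 14, 5 of 14 were lower and 3 higher in each comparison. Of all genes there, 18.9% were lower in each, and 23.0% were higher with and 24.0% without doxycycline. *Gcsh*, which carries the aminomethyl group in glycine cleavage and lies on chromosome 8, had 111 ± 3.02 CPM in mutant and 179.5 ± 5.63 CPM in wild-type libraries with doxycycline and 106 ± 2.06 CPM in mutant against 182 ± 6.74 CPM in wild-type libraries without. *Ahcy*, which clears the product of methyl transfer (log2 fold change -0.40 and -0.47), and *Atic*, of purine synthesis (-0.46 and -0.48), were also lower. The genes called higher in both comparisons were *Mthfd2l* (1.03 ± 0.17 with and 0.56 ± 0.16 without doxycycline) and *Aldh1l1* (0.66 ± 0.21 and 1.28 ± 0.22). The third was *Slc25a32* with doxycycline (0.31, edgeR adjusted p = 0.0484) and *Slc19a1* without it (0.31, adjusted p = 0.0375). Among 11 genes of eIF2 kinases, phosphatase subunits and C/EBP partners 3 (27.3%) were lower and 2 (18.2%) higher in each comparison, near the shares over all genes. Outside chromosomes 8, 11 and 14 they were 2 lower and 2 higher of 10. *Eif4ebp1*, a translation repressor and ATF4 target on chromosome 8, was lower (-0.43 with and -0.68 without doxycycline). The median of that chromosome was -0.37 with and -0.39 without doxycycline. *Cebpg*, the usual C/EBP partner of ATF4, was higher (0.31 and 0.58).

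ER chaperones did not follow the members. Of 16 chaperone and unfolded protein response genes, 2 were higher and 3 lower in the mutant line with doxycycline, and 8 were higher and 0 lower without it. Outside chromosomes 8, 11 and 14, 2 of 10 were higher and 0 lower with it, and 6 were higher and 0 lower without. Of all genes there, 23.0% were higher with and 24.0% without it. *Hspa5*, which encodes BiP, the main ER chaperone, had 688 ± 23.2 CPM in mutant and 495 ± 32.9 CPM in wild-type libraries with doxycycline (0.48 ± 0.05, adjusted p = 3.01e-13) and 706 ± 18.4 CPM in mutant against 470.0 ± 19.6 CPM in wild-type libraries without (0.59 ± 0.05, adjusted p = 2.06e-16). In the wild-type line 4 of the 16 (25.0%) rose with doxycycline, where 2.76% of all genes did, and all 16 log2 fold changes were above 0. Among the 4 were *Hsp90b1* (0.22 ± 0.04, adjusted p = 0.000163) and *Calr* (0.20 ± 0.05, adjusted p = 0.00176).

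**Figure D5:**
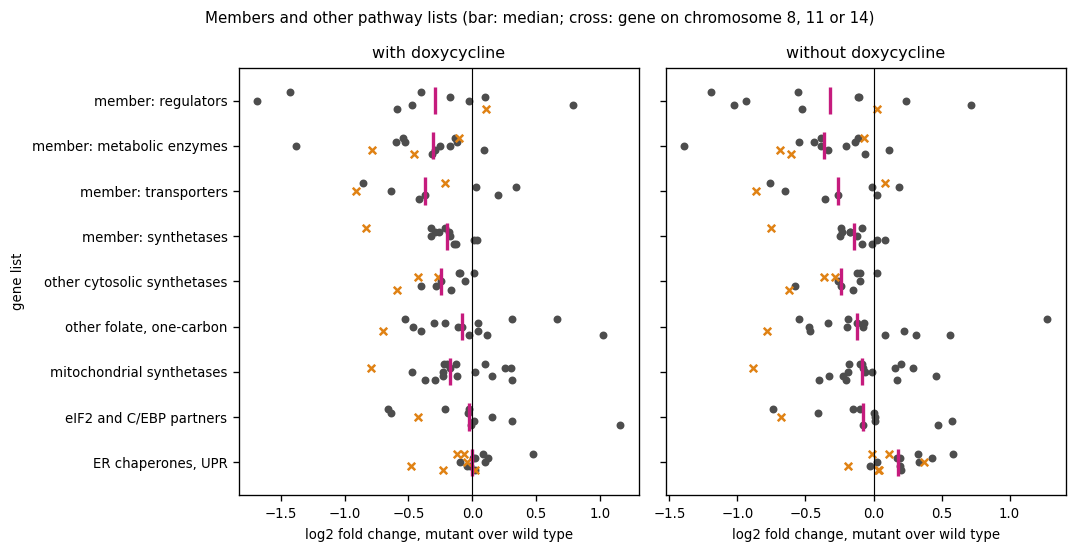
Log2 fold change of mutant over wild type with (left panel) and without doxycycline (right panel) for each tested gene of the 4 member classes and 5 related lists; the bar is the median and crosses are genes on chromosomes 8, 11 or 14. With doxycycline every list has a median below 0, that of the ER chaperones being -0.005. Without doxycycline every list except the ER chaperones, at 0.18, has a median below 0.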

How the data were processed

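Raw counts of reads per gene, as deposited by the authors in 1 table of 23086 symbols and 12 libraries, were used. Per the labels' protocols an RNeasy Micro kit gave the RNA and a TruSeq RNA kit the libraries. Per the submitters' processing notes, Trimmomatic 0.33, TopHat2 2.1.1, limma and the mm10 genome were used. The sources used here do not give the counting tool, annotation or strand setting, so reads of overlapping or antisense genes cannot be told apart. Of the symbols, 27 read as dates and are not named.

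Counts were tested with edgeR's quasi-likelihood test (edgeR 4.0.16, R 4.3.3, limma 3.58.1) with TMM scaling. The filterByExpr filter (minimum count 10, total 15) left 12322 genes with 99.8% of the counts. One fit held the 12 libraries, with a mean for each group and 8 residual degrees of freedom. Calls were made at p under 0.05 after Benjamini-Hochberg adjustment over all genes tested within a comparison. The 5 comparisons were mutant against wild type with and without doxycycline, doxycycline against none in each line, and the difference of these responses. Dividing the absolute log2 fold change by the root of the F statistic gave standard errors. CPM uses TMM-scaled library sizes, and CPM per kb divides by the summed exon length in GENCODE M21, to which all 46 members were matched by symbol. That length merges the exons of all annotated transcripts of a gene, so rankings per kb depend on it. Promoter sequences are from RefSeq (GRCm38.p6). The model was tested on simulated data.

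The members and all gene lists were chosen with earlier results of these data known, so no test was made over a list. Per-library values are given for up to 6 called members per class with the smallest adjusted p, for 10 listed genes (*Atf4*, *Atf5*, *Ddit3*, *Asns*, *Psat1*, *Phgdh*, *Shmt2*, *Mthfd2*, *Slc7a11* and *Nupr1*) and for members called in the wild-type response. From other lists, up to 2 called genes with the smallest adjusted p per comparison are named; *Ddit4*, *Lars2* and others whose values are given outside this rule were chosen after their values were seen. Alternatives were DESeq2 (1.42.0) or its size factors, upper-quartile scaling, limma-voom, no filter, only the libraries compared, a replicate block, leaving out each library, and leaving out both libraries that stood apart. All replicate pairs differed by more than sampling noise (lowest chi-square per degree of freedom 1.109). At 4289984 to 4850393 counts per library, small changes in rare transcripts such as *Nupr1* and *Atf3* were not detectable.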

Additional observations from a re-analysis of the deposited data

Results flagged for a closer look

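No member was called for a difference between the lines in its response to doxycycline, but 4 genes of the related lists were, by edgeR's test of the difference of responses (mutant minus wild-type, log2 scale). They were 1 of 11 eIF2 and C/EBP partner genes, called higher, and 3 of 16 ER chaperone genes, called lower. Of all genes tested, 2.49% were called, 1.09% higher and 1.40% lower. The alternative settings were not read for these 4 genes, and over all genes DESeq2 called 153 in this test, against 307 with edgeR. *Gadd45a*, a stress-induced gene, had a difference of 0.68 ± 0.15 (adjusted p = 0.00266). It had 45.6, 45.5 and 49.9 CPM in treated and 43.6, 38.9 and 44.3 CPM in untreated mutant libraries, against 22.9, 22.6 and 17.8 CPM in treated and 30.0, 33.0 and 28.0 CPM in untreated wild-type libraries. Each treated wild-type library lay below each untreated one.

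The ER chaperone genes *Hsp90b1*, *Calr* and *Canx* had differences of -0.31 ± 0.06, -0.26 ± 0.06 and -0.23 ± 0.06 (adjusted p = 0.000262, 0.0119 and 0.018). *Hsp90b1* had 834, 799.6 and 811 CPM in treated and 878, 861 and 869 CPM in untreated mutant libraries, against 745, 754 and 747 CPM in treated and 634, 658 and 643 CPM in untreated wild-type libraries. *Calr* and *Canx* averaged 547 ± 7.65 and 645 ± 25.3 CPM in treated and 567 ± 13.2 and 688 ± 17.5 CPM in untreated mutant libraries, against 639 ± 31.2 and 701 ± 11.7 CPM in treated and 556 ± 38.7 and 637 ± 30.9 CPM in untreated wild-type libraries (SD, n = 3). The cause was not tested.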

How the results depend on the processing

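Scaling by DESeq2's size factors or upper quartiles left every count of called members as it was. DESeq2's own test called 20 members lower and 1 higher without doxycycline (*Cars*, *Cbs*, *Nars*, *Psph* and *Trib3* lost) and 24 lower and 2 higher with it (*Mthfd1*, *Psph*, *Sesn2*, *Tars* and *Yars* lost); over all genes it called 380 in the wild-type response and 153 in the difference of responses, against 655 and 307 with edgeR. Leaving out single libraries gave 22 to 25 lower without and 24 to 29 lower with doxycycline. Members higher in the mutant line without doxycycline, 1 in all libraries, became 2 with limma-voom (*Ddit4* added), 3 without both libraries that stood apart (*Ddit4* and *Mthfd1l* added), and 1 to 3 with single libraries left out; with doxycycline they were 2 in all libraries, 3 with limma-voom (*Ddit4* added) and 1 to 2 with single libraries left out. The wild-type response, with 4 members called, gave 1 with DESeq2, 2 with only the libraries compared, 2 without both libraries that stood apart, and 0 to 4 with single libraries left out. The test of the difference of responses gave 1 member without both libraries.

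Class medians (log2) over the fits without 1 library ran, without doxycycline, from -0.38 to -0.058 for transporters and from -0.15 to -0.11 for synthetases, and with doxycycline from -0.37 to -0.27 for enzymes and from -0.44 to -0.24 for transporters. The enzyme median with doxycycline was -0.37 without both libraries that stood apart. The synthetase median with doxycycline was -0.24 relative to chromosome medians, an alternative chosen after seeing the data. Uncalled genes near 0 changed sign. Without both libraries that stood apart, values were 0.012 for *Pycr1* and 0.068 for *Slc1a5* without doxycycline, and -0.030 for *Sars*, -0.0036 for *Slc1a5* and -0.11 for *Stc2* with it; *Ddit3* with doxycycline was 0.0094 with limma-voom. Over fits without 1 library the ranges were, without doxycycline, -0.030 to 0.027 for *Iars*, -0.23 to 0.020 for *Pycr1*, -0.0083 to 0.070 for *Sars*, -0.068 to 0.076 for *Slc1a5* and -0.18 to 0.49 for *Stc2*. With doxycycline they were -0.28 to 0.33 for *Ddit3*, -0.28 to 0.10 for *Pycr1*, -0.029 to 0.054 for *Sars*, -0.032 to 0.12 for *Slc1a5* and -0.11 to 0.49 for *Stc2*. *Nupr1* in the mutant response ran from -0.057 to 0.80. The cause was not tested.

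Deviations from group means of equally numbered libraries correlated at -0.0615 to 0.0794 over all genes tested. A correlation over so many genes cannot show whether replicate numbers pair the libraries, and the labels do not say so. In the wild-type line the third library was the highest for *Bnip3* (106.5 CPM with and 229 CPM without doxycycline) and *Ddit4* (133 and 194 CPM). With the replicate block, 25 members stayed lower and 1 higher without doxycycline, 29 were lower and 2 higher with it, and 3 were called in the wild-type response, *Mars* being lost (adjusted p = 0.0529). The mutant line's response and the difference of responses stayed at 0 members.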

Other observations

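Of 11 hypoxia-induced genes tested, which are not members but include *Bnip3*, 4 were higher and 0 lower in the mutant line with doxycycline, where 21.9% of all genes were higher. Without it 2 (18.2%) were higher and 0 lower, below the 23.0% over all genes. *Ldha*, lactate dehydrogenase, had 2576, 2716 and 2522 CPM in mutant and 1225, 1199.9 and 1329 CPM in wild-type libraries with doxycycline (log2 fold change 1.06 ± 0.10, edgeR adjusted p = 3.70e-05). It had 2524, 2495 and 2679.9 CPM in mutant against 1315, 1351 and 1753 CPM in wild-type libraries without (0.80 ± 0.10, adjusted p = 0.00023). *Pgk1*, a glycolytic kinase upstream of serine synthesis, differed by 0.80 ± 0.13 with and 0.64 ± 0.13 without doxycycline (adjusted p = 0.000999 and 0.00347). In both genes each mutant library lay above each wild-type library.

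*Lars2*, the mitochondrial leucyl-tRNA synthetase gene, had 4877 CPM in the second wild-type library with doxycycline, the one with high *Rn45s*, and 2016 to 2628 CPM in the other 11 libraries. It was called in no comparison.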
